A study of Mus musculus with 35 samples.

Results

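The expression of 10 late neutrophil genes was examined in RNA from hematopoietic stem/progenitor cells (HSPCs) of WT and JMJD1B-/- mice. They were the calprotectin pair S100a8 and S100a9, the specific granule genes Ngp, Ltf, Camp and Lcn2, the resistin-like gene Retnlg, the metalloproteinase genes Mmp8 and Mmp9, and the chitinase-like gene Chi3l3. The genes were taken by name, and those described were selected on their highest RPKM (reads per kilobase of transcript, scaled to library depth), because the expression table lists a gene only where it reached 1 RPKM in at least 1 library. Of the 10 genes, 6 were listed, among 11982 gene names in all. Lcn2, Mmp8, Mmp9 and Chi3l3 were not found in the table and were not analysed here.

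The study asked how loss of JMJD1B, a histone demethylase encoded by Kdm3b, alters gene expression in HSPCs. RNA was sequenced from 2 WT and 2 JMJD1B-/- libraries, which the design text calls biological replicates. Both genotypes had the 129P2xC57BL/6J background and were adult littermates of matched age. The knockout was a gene trap present in the whole animal, so it was not limited to HSPCs, and male and female mice were used in the study. HSPCs were taken from bone marrow, and how they were purified for RNA is not given in the sources used here. As a check of the labels, Kdm3b had RPKM values of 31.0 and 24.3 in WT HSPCs against 4.00 and 4.63 in JMJD1B-/- HSPCs (log2 fold change −2.65, SE 0.24, limma adjusted p = 0.0314).

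Neutrophils fill their granules in order. Primary granule genes such as Mpo and Elane are transcribed at the promyelocyte stage, specific granule genes such as Ltf, Camp and Ngp at the myelocyte and metamyelocyte stages under the factor C/EBPε, and gelatinase and cytosolic genes such as Mmp9, S100a8 and S100a9 in the latest cells. These late genes are among the most abundant transcripts of mature bone marrow neutrophils and are low in stem and progenitor cells. In bulk RNA, more cells of a type and more RNA per cell cannot be told apart.

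The 250 bases before the transcription start of the listed members are shown for the 2 adjacent S100 genes and for 3 other members, Ngp, Ltf and Retnlg, that were highest in JMJD1B-/- replicate 1, because the factors that drive granule genes bind close to the start. The sequences are those of RefSeq on GRCm38.p6, written 5′ to 3′ toward the start, and all 6 listed members had an entry. The windows lie at chr3:90668821-90669070 (plus strand) for S100a8, chr3:90695722-90695971 (minus strand) for S100a9, chr9:110419558-110419807 (plus strand) for Ngp, chr9:111019042-111019291 (plus strand) for Ltf and chr16:48872358-48872607 (plus strand) for Retnlg. Capitals mark matches, on either strand, to TTGCNNAA (the letters of a C/EBP site), GAGGAA (PU.1 and other ETS factors) or TATAAA (the TATA box).
S100a8: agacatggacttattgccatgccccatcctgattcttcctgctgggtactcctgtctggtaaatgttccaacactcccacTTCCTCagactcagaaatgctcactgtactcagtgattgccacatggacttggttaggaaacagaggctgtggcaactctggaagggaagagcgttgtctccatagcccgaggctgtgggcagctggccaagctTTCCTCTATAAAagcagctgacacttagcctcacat
S100a9: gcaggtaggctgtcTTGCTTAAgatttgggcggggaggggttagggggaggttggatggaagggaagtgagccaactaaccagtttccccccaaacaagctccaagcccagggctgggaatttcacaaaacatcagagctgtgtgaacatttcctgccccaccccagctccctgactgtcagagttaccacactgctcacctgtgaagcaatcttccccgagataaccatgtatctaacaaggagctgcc
Ngp: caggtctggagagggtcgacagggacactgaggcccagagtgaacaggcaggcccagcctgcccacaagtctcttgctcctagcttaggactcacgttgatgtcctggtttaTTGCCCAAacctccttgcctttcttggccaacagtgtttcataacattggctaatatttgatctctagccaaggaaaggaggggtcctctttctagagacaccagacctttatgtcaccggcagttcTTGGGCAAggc
Ltf: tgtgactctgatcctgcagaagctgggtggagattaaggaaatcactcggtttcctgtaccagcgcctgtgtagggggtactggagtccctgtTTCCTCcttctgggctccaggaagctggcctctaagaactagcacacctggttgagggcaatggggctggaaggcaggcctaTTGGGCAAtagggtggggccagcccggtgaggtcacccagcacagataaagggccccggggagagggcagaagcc
Retnlg: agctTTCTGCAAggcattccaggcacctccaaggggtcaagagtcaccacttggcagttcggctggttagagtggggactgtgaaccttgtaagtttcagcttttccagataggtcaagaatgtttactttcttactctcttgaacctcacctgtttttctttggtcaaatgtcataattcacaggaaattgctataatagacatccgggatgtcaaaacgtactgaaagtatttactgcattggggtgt

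TTGCNNAA was found in 4 of the 6 listed members, S100a9, Ngp, Ltf and Retnlg. The same letters stood in 9.56% of 32851 mouse promoters of this length and in 7.68% of 10786 promoters of genes in the table. Ngp had 2 matches, at −138 to −131 and at −11 to −4 counted from the start. GAGGAA was found in S100a8 and Ltf, 2 of the 6, against 23.3% of all promoters and 22.7% of those of genes in the table. In S100a8 the capital run next to the start joins GAGGAA on the opposite strand at −36 to −31 with TATAAA at −30 to −25, and these do not overlap. TATAAA was found in S100a8 alone among the members, against 12.4% of all promoters and 6.42% of those of genes in the table. Camp held none of the 3 motifs in this window. The members had 2 to 4 CpG dinucleotides each, against a median of 6 over all promoters and of 15 over promoters of genes in the table. A match of letters does not show that a factor binds there.

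S100a8 encodes a calcium-binding subunit that pairs with S100A9 to form calprotectin, the main cytosolic protein of neutrophils. Its RPKM was 7.24 and 4.74 in WT replicates 1 and 2, and 8.71 and 10.6 in JMJD1B-/- replicates 1 and 2. Both JMJD1B-/- libraries stood above both WT libraries. The mean was 5.99 ± 1.76 RPKM in WT and 9.65 ± 1.34 RPKM in JMJD1B-/- HSPCs (SD, n = 2 libraries each), a ratio of 1.61. The log2 fold change on the scale of log2(RPKM + 0.1) was 0.70 (SE 0.30, limma unadjusted p = 0.0484, adjusted p = 0.489). The adjusted p is over all 11863 genes with a mean of at least 0.5 RPKM.

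S100a9, the partner subunit, was listed at 2.79 and 1.41 RPKM in WT HSPCs and at 8.01 and 10.8 RPKM in JMJD1B-/- HSPCs. The lowest JMJD1B-/- value was above the highest WT value, and among the tested members only S100a9 had a gap between genotypes, in RPKM, larger than the difference between replicates of either genotype. Its mean was 2.10 ± 0.980 RPKM in WT and 9.43 ± 2.003 RPKM in JMJD1B-/- HSPCs, a ratio of 4.49. The log2 fold change was 2.17 (SE 0.40, limma unadjusted p = 0.000837, adjusted p = 0.166). It did not pass the adjusted threshold of 0.05 over all genes.

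The values of the S100 pair rested on few reads, estimated as the whole numbers of 51-base reads that fit the RPKM values. For S100a9 these were 24 and 17 reads in the WT libraries and 24 and 112 reads in the JMJD1B-/- libraries. For S100a8 they were 50 and 46 reads in the WT libraries and 21 and 88 reads in the JMJD1B-/- libraries. JMJD1B-/- replicate 1 was the shallowest library, with about 6100000 reads against 17500000 to 24600000 in the others. In that library 3 reads on S100a9 equal 1.00 RPKM, against 0.249 to 0.349 RPKM in the others. Such floors cover counting error only.

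**Figure D1:**
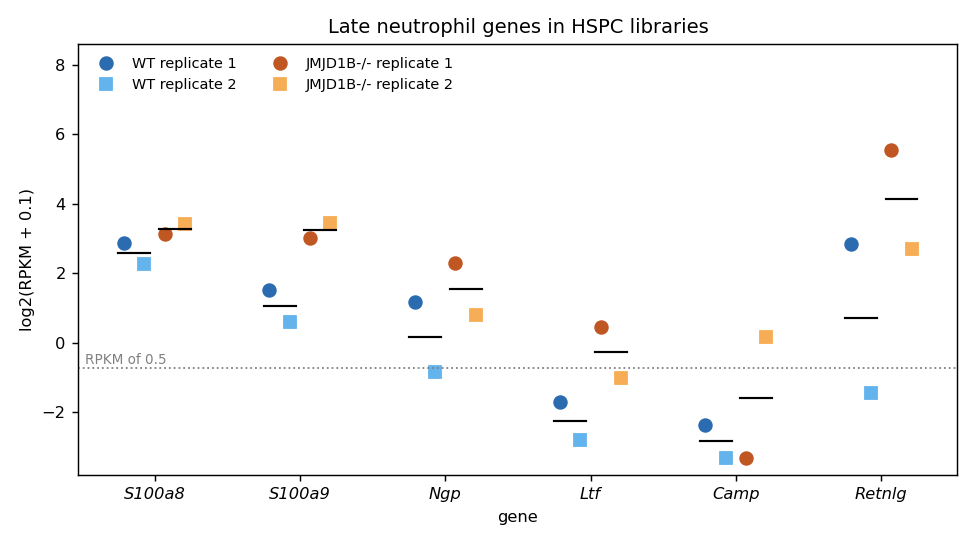
Level of the 6 listed members as log2(RPKM + 0.1), 1 point per library (blue WT, orange JMJD1B-/-, circles replicate 1, squares replicate 2), with a black line at the mean of each genotype and a dotted line at 0.5 RPKM. Both JMJD1B-/- points of S100a8, S100a9 and Ltf lie above both WT points, and for Ngp, Camp and Retnlg the genotypes overlap.

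The 2 subunits of calprotectin did not stand at the same ratio in the genotypes. S100a8 exceeded S100a9 by 2.59 and 3.36 times in the WT libraries, and the RPKM values were nearly equal in the JMJD1B-/- libraries, with ratios of 1.09 and 0.977. The mean ratio was 2.98 ± 0.548 in WT and 1.03 ± 0.0775 in JMJD1B-/- HSPCs (SD, n = 2 each). The ratio of JMJD1B-/- replicate 1 rests on 21 reads of S100a8 and 24 of S100a9, and that of WT replicate 2 on 46 and 17. The SD of 2 libraries can therefore understate the counting error. The ratios of the genotypes did not overlap, and with 2 libraries against 2 no exact permutation p can be lower than 0.333. A ratio within a library is not altered by multiplying the library by a constant.

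**Figure D2:**
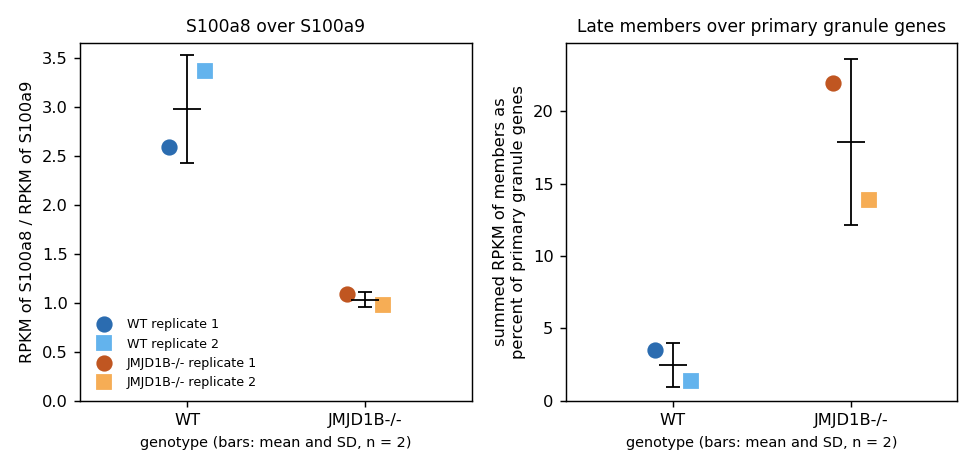
Left, RPKM of S100a8 divided by that of S100a9 in each library. Right, the summed RPKM of the 6 listed members as a percent of the summed RPKM of the listed primary granule genes, with the mean and SD of 2 libraries per genotype in black. The ratio of the S100 genes was 2.59 to 3.36 in WT and 0.977 to 1.09 in JMJD1B-/- libraries, and the percent, Ltf and Camp included, was 1.37 to 3.53 in WT and 13.8 to 21.9 in JMJD1B-/- libraries. Srgn was the largest part of the primary granule sum in each library.

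S100a8 and S100a9 are neighbours on chromosome 3, on opposite strands, with 0 protein-coding genes between them in RefSeq. The nearest listed genes outside the pair belong to the same family and overlapped between genotypes. S100a6 had 7.76 and 7.78 RPKM in WT against 29.9 and 6.36 RPKM in JMJD1B-/- libraries (log2 fold change 0.82, SE 0.62, limma adjusted p = 0.680). S100a11 had 11.1 and 9.30 RPKM against 22.3 and 8.40 RPKM (log2 fold change 0.43, SE 0.43, limma adjusted p = 0.763). In both, JMJD1B-/- replicate 1 was high and replicate 2 was below the WT libraries, unlike S100a8 and S100a9.

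Among the specific granule genes, Ngp encodes neutrophilic granule protein, a relative of the cathelin family to which CAMP belongs. Its RPKM was 2.15 and 0.454 in WT and 4.78 and 1.63 in JMJD1B-/- libraries. The genotypes overlapped, since WT replicate 1 lay above JMJD1B-/- replicate 2. The means were 1.30 ± 1.199 and 3.21 ± 2.23 RPKM, which gave a log2 fold change of 1.38 (SE 0.80, limma adjusted p = 0.601).

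Ltf encodes lactotransferrin, the iron-binding protein of specific granules. It was listed at 0.205 and 0.0442 RPKM in WT and at 1.28 and 0.397 RPKM in JMJD1B-/- libraries, about 10, 3, 22 and 23 reads. Both JMJD1B-/- libraries were above both WT libraries. Ltf reached 1 RPKM in JMJD1B-/- replicate 1 alone, so it entered the table through that library, and with a mean of 0.482 RPKM it was just under the filter and was not tested.

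Camp encodes the cathelicidin precursor CRAMP, an antimicrobial peptide. It was listed at 0.0948 and 0 RPKM in WT and at 0 and 1.03 RPKM in JMJD1B-/- libraries. Only JMJD1B-/- replicate 2, with 13 reads, was above the level of 3 reads, which on this gene came to 0.284 and 0.202 RPKM for WT and to 0.815 and 0.237 RPKM for JMJD1B-/- replicates 1 and 2. Camp also entered the table through 1 JMJD1B-/- library and, with a mean of 0.280 RPKM, was not tested. The tested member with the lowest mean was Ngp, at 2.25 RPKM.

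Camp, Ngp and Ltf lie on chromosome 9 with other listed genes between and around them. RefSeq has 8 protein-coding genes between Camp and Ngp, 6 of them in the table, and 20 between Ngp and Ltf, 7 of them in the table. The nearest listed genes on each side of the 3 members were Nme6, Cdc25a, Ptpn23, Klhl18, Als2cl and Ccrl2. Their log2 fold changes were between −0.83 for Ccrl2 and 0.13 for Nme6, with limma adjusted p of 0.575 or higher.

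Retnlg encodes resistin-like gamma, a secreted protein of bone marrow and late neutrophils, and it had the widest spread of the members. Its RPKM was 7.10 in WT replicate 1 and 0.266 in WT replicate 2. In JMJD1B-/- HSPCs it was 46.5 in replicate 1 and 6.45 in replicate 2. JMJD1B-/- replicate 1 held 174 reads in the shallowest library, whereas WT replicate 2 held 4 reads in the deepest one. The genotypes overlapped, because WT replicate 1 lay above JMJD1B-/- replicate 2. The means were 3.68 ± 4.83 and 26.5 ± 28.4 RPKM, with SDs above the means. The log2 fold change was 3.43 (SE 1.37, limma unadjusted p = 0.0389, adjusted p = 0.477). In JMJD1B-/- replicate 1, 90.7% of the listed genes had a lower RPKM than Retnlg, against 1.35% in WT replicate 2.

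Of the 10 members, 4 were tested, and 0 passed an adjusted p of 0.05 in limma in either direction. Over all genes tested, 0.0421% were called at that threshold, 0.00843% higher and 0.0337% lower. At an unadjusted p under 0.05, 3 members, S100a8, S100a9 and Retnlg, were higher in JMJD1B-/- HSPCs and 0 were lower, where 3.81% of all genes tested were called higher and 6.33% lower. The median log2 fold change of the 4 tested members was 1.78, against −0.02 over all genes. Both JMJD1B-/- libraries stood above both WT libraries in 2 of the 4, as they did in 20.1% of all genes tested. With quantile normalization, the 3 members with an unadjusted p under 0.05 became 2, without Retnlg, and over all genes the split of higher and lower calls went from 452 and 751 to 666 and 714. Median-ratio scaling gave the same 2 members and a split of 630 and 750.

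The 4 tested members, S100a8, S100a9, Ngp and Retnlg, had their lowest value in WT replicate 2, where 15.9% of all genes tested had theirs. Ltf and Camp were also lowest there, Camp together with JMJD1B-/- replicate 1, but both are listed only through a JMJD1B-/- library and are not set against that percent. WT replicate 2 also differed from the other libraries in sex-linked genes. Xist, which is transcribed from the inactive X chromosome, had 332 RPKM there and at most 0.0510 RPKM in the others, and the Y-linked gene Ddx3y had 0.411 RPKM there and 25.5 to 29.3 RPKM in the others. The labels do not give the sex of the mice. Without WT replicate 2, 1 member, S100a9, kept an unadjusted p under 0.05, while over all genes the calls went from 452 to 247 higher and from 751 to 282 lower (S100a9 log2 fold change 1.70, SE 0.45, limma adjusted p = 0.961). The log2 fold change without that library was 0.40 for S100a8, 0.37 for Ngp and 1.28 for Retnlg. The part of this library's sex-linked difference in the members' values was not tested.

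The members did not share a single profile over the libraries. Of the 4 tested members, Ngp and Retnlg were higher in replicate 1 than in replicate 2 of both genotypes, by at least 2-fold on the scale of log2(RPKM + 0.1). Retnlg differed between replicates by 4.30 in WT and 2.83 in JMJD1B-/- HSPCs on the log2 scale, and Ngp by 2.02 and 1.49. Among all genes tested, 0.717% (85 genes) differed in this way. Ltf, which was not tested, differed by 1.08 and 1.48, but its listing through JMJD1B-/- replicate 1 alone favours a high replicate 1 in that genotype. S100a8 and S100a9 were higher in replicate 1 of WT but lower in replicate 1 of JMJD1B-/- HSPCs, and their replicates differed by less than 2-fold.

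The 85 genes were searched for genes of the related lists after their values were seen. They included 1 of 8 tested transcription factors, Cebpe, which encodes C/EBPε, the factor that specific granules require. Cebpe had 6.59 and 0.591 RPKM in WT and 7.30 and 1.56 RPKM in JMJD1B-/- libraries. Of 22 other late neutrophil genes, 3 were among them (Olfm4, Mmp25 and Cybb), as were 2 of 12 monocyte and macrophage genes (Ly6c2 and Emr1) and 4 of 11 genes of basophils, eosinophils and mast cells, all 4 of them eosinophil genes (Epx, Prg2, Prg3 and Il5ra). The eosinophil granule gene Prg2 had 5377 and 988 RPKM in WT and 4328 and 1077 RPKM in JMJD1B-/- libraries. None of the 11 primary granule genes, and no gene of the other lists, was among the 85. The part of other cells in the values of Ngp, Ltf and Retnlg was not tested.

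**Figure D3:**
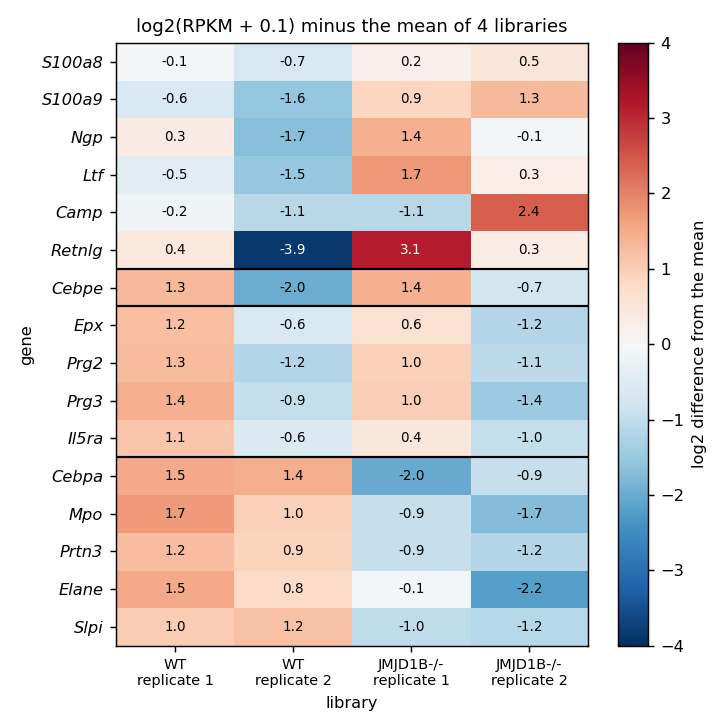
log2(RPKM + 0.1) of each gene minus its mean over the 4 libraries, with red above and blue below the mean; black lines separate the members, Cebpe, eosinophil genes, and a last block of Cebpa, 3 primary granule genes and Slpi, chosen after their values were seen. Retnlg ran from −3.86 in WT replicate 2 to 3.13 in JMJD1B-/- replicate 1, the eosinophil genes were high in replicate 1 of both genotypes, and the genes of the last block were lower in both JMJD1B-/- libraries.

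Primary granule genes had lower values in JMJD1B-/- HSPCs, unlike the late members. Of 12 such genes, 11 were in the table and all 11 were tested. At an unadjusted p under 0.05, 7 were lower and 0 higher, and the median log2 fold change was −1.30. That median is the value of Nkg7, which is also in the list of T and NK cell genes. Prtn3, the gene of proteinase 3, had 40.1 and 31.8 RPKM in WT and 8.90 and 7.53 RPKM in JMJD1B-/- HSPCs, and fell by 2.11 on the log2 scale (SE 0.22, limma adjusted p = 0.04998). Its call at an adjusted p under 0.05 was lost with median-ratio scaling, quantile normalization, limma without trend and a gene-by-gene test. Mpo, which encodes myeloperoxidase, had 131 and 79.0 RPKM against 21.4 and 12.1 RPKM (log2 fold change −2.65, SE 0.33, limma adjusted p = 0.0640). Ms4a3, Elane and Ctsg had log2 fold changes of −2.49, −2.29 and −2.13, with limma adjusted p of 0.155, 0.320 and 0.204.

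The ratio of the late members to primary granule genes was higher in both JMJD1B-/- libraries than in both WT libraries. The summed RPKM of the 6 listed members was 19.6 and 6.91 in WT and 69.3 and 31.0 in JMJD1B-/- libraries. Retnlg alone gave 46.5 of the 69.3 RPKM in JMJD1B-/- replicate 1. As a percent of the summed primary granule genes this was 3.53 and 1.37 in WT, and 21.9 and 13.8 in JMJD1B-/- HSPCs. Without Ltf and Camp, which are listed only through a JMJD1B-/- library, it was 3.48 and 1.36 in WT and 21.5 and 13.2 in JMJD1B-/- HSPCs. S100a8 and S100a9 together came to 1.81% and 1.22% of the summed primary granule genes in WT and to 5.29% and 9.60% in JMJD1B-/- libraries. Srgn was the largest part of the summed primary granule genes in each library. It gave 191 of 554 and 235 of 505 RPKM in WT, and 190 of 316 and 159 of 223 RPKM in JMJD1B-/- libraries. Mpo had the lowest log2 fold change of the primary granule list, and against Mpo alone the pair came to 7.65% and 7.78% in the WT libraries, and to 78.1% and 177.5% in the JMJD1B-/- libraries.

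Other late neutrophil genes, of receptors, adhesion and further granule proteins, were lower more often than higher. Of 40 such genes, 23 were in the table and 22 were tested, of which 8 were lower and 1 higher at an unadjusted p under 0.05, with a median log2 fold change of −0.86. The median was −1.62 without JMJD1B-/- replicate 1, −0.55 without WT replicate 1 and −0.26 without JMJD1B-/- replicate 2. Both JMJD1B-/- libraries were below both WT libraries in 11 of the 22 and above them in 1, against 22.7% and 20.1% of all genes. Slpi, a secreted inhibitor of neutrophil elastase, had 7.59 and 8.41 RPKM in WT and 1.79 and 1.62 RPKM in JMJD1B-/- libraries (log2 fold change −2.17, SE 0.32, limma adjusted p = 0.111). Pglyrp1, a peptidoglycan recognition protein of granules, had a log2 fold change of −1.98 (limma adjusted p = 0.278). Clec4d, a C-type lectin receptor, had 2.79 and 1.89 RPKM in WT and 0 and 2.55 RPKM in JMJD1B-/- libraries, so the genotypes overlapped and its log2 fold change of −2.22 (limma adjusted p = 0.625) rests on the 0 in the shallowest library. Mmp25, a membrane-bound metalloproteinase of neutrophils, was the higher gene, at 0.541 and 0.155 RPKM in WT and 4.04 and 1.21 RPKM in JMJD1B-/- libraries (log2 fold change 2.52, SE 0.86, limma adjusted p = 0.423). Mmp25 did not reach 1 RPKM in WT, so, like Ltf and Camp, it is listed only through JMJD1B-/- libraries. Clec4e (1.65 and 1.92 RPKM in WT) and AI607873 (1.39 and 0.724 RPKM) did not reach 1 RPKM in JMJD1B-/- libraries and are listed only through WT. Both are among the 11 below both WT libraries, and Clec4e is 1 of the 8 lower genes.

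**Figure D4:**
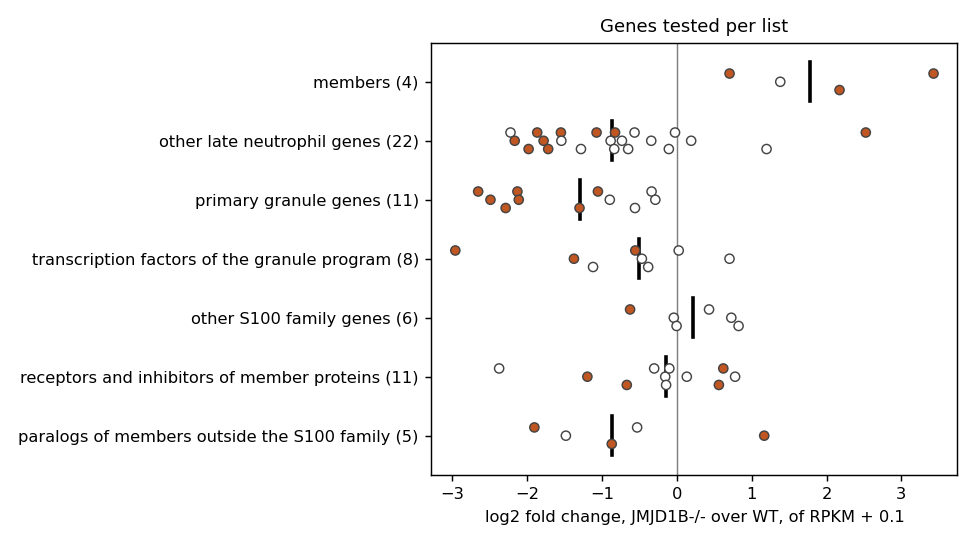
log2 fold change of JMJD1B-/- over WT, 1 point per tested gene and 1 line of points per list, with the number tested in brackets, filled where the limma unadjusted p was under 0.05, and a black bar at the median. The 4 tested members have a median of 1.78, while other late neutrophil genes have one of −0.86 and primary granule genes one of −1.30.

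Of 10 transcription factors of the granule program, 9 were in the table and 8 were tested, and 3 were lower and 0 higher at an unadjusted p under 0.05 (median log2 fold change −0.51, and −0.82 without JMJD1B-/- replicate 1). Cebpa, which starts the granulocyte program, had 13.4 and 12.7 RPKM in WT and 1.05 and 2.36 RPKM in JMJD1B-/- HSPCs (log2 fold change −2.96, SE 0.41, limma adjusted p = 0.0768). Gfi1, a repressor needed for neutrophil maturation, had a log2 fold change of −1.37 and Stat3, which acts downstream of the G-CSF receptor, one of −0.56, with limma adjusted p of 0.486 and 0.425. Cebpe overlapped between genotypes, with a log2 fold change of 0.70 (SE 1.09, limma adjusted p = 0.859). Cebpd, Cebpb, Runx1 and Klf5 had log2 fold changes of −1.12, −0.47, −0.38 and 0.02, with limma adjusted p from 0.505 to 0.993. Lef1 was under the filter, and Spi1 was not analysed here. Cebpe stood at 0.494 and 0.0467 times the RPKM of Cebpa in the WT libraries, and at 6.92 and 0.660 times in the JMJD1B-/- libraries.

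Of 13 other S100 genes, 6 were listed and tested, with 1 lower and 0 higher at an unadjusted p under 0.05 and a median log2 fold change of 0.21. The lower gene was S100a13 (log2 fold change −0.62, SE 0.23, limma adjusted p = 0.433). S100a4, a calcium-binding protein of motile cells, had 13.05 and 20.3 RPKM in WT and 77.3 and 9.42 RPKM in JMJD1B-/- libraries. It followed S100a6 and S100a11 in being high in JMJD1B-/- replicate 1 alone, which S100a8 and S100a9 were not.

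Receptors and inhibitors of the member proteins, such as Tlr4, through which calprotectin signals, and the TIMP genes, had 11 of 13 tested, with 2 higher and 2 lower at an unadjusted p under 0.05 and a median of −0.14. Tlr4 had 1.74 and 1.06 RPKM in WT and 0 and 0.692 RPKM in JMJD1B-/- libraries. It is listed only through WT libraries, and its 0 is in the shallowest library. The inhibitor gene Timp3 had a log2 fold change of −1.19 (SE 0.29, limma adjusted p = 0.267), and Timp2 and Lrp8 had 0.78 and −0.67. Of 18 relatives of the members outside the S100 family, 5 were tested, with 1 higher and 2 lower and a median of −0.87. They included Trf, the transferrin relative of Ltf (log2 fold change −1.90, limma adjusted p = 0.296), Mmp14 (1.17, limma adjusted p = 0.369), Mmp19 (−1.48) and Cst3, a cystatin (−0.87).

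Markers of other cell types also differed between genotypes or libraries. All 12 stem and progenitor markers were listed, with 5 lower and 0 higher at an unadjusted p under 0.05 (median −0.63, and −0.36 without JMJD1B-/- replicate 1). The genes with the largest differences were Flt3, Cd34, Mecom and Ly6a, with log2 fold changes of −1.84, −1.46, −1.24 and −0.95 and limma adjusted p of 0.433, 0.185, 0.430 and 0.649. Kit, the stem cell factor receptor, is given as a check of the cell type, with 66.9 and 62.5 RPKM in WT and 51.6 and 92.7 RPKM in JMJD1B-/- libraries. Of 11 tested erythroid genes, 10 were higher, with a median of 1.62 and summed RPKM of 726 and 1037 in WT and 2085 and 3222 in JMJD1B-/- libraries. Of 9 megakaryocyte genes, 7 were lower (median −0.75), as were 5 of 12 monocyte and macrophage genes (median −0.99, −1.66 without JMJD1B-/- replicate 1 and −0.54 without JMJD1B-/- replicate 2), with summed RPKM of 190 and 206 in WT and 151 and 43.0 in JMJD1B-/- libraries. The list of basophil, eosinophil and mast cell genes had 6 lower and 1 higher of 11 (median −2.37), and Prss34, a basophil protease, fell by 3.35 on the log2 scale (SE 0.23, limma adjusted p = 0.00637). The call of Prss34 at an adjusted p under 0.05 was lost with median-ratio scaling, quantile normalization, limma without trend and a gene-by-gene test. Among T and NK cell genes 2 of 9 were higher and 1 lower, with summed RPKM of 29.0, 42.6, 98.8 and 19.3 in the order WT 1, WT 2, JMJD1B-/- 1 and JMJD1B-/- 2. The lower gene was Nkg7, which also stands in the list of primary granule genes and is counted as lower there. The 1 tested B cell gene, Cd79b, and 2 of 7 genes of stroma and endothelium were lower. The part of these cells in the members' values was not tested.

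The 10 genes whose centred log2(RPKM + 0.1) profile over the 4 libraries lay closest to the median profile of the 6 listed members were sought among 6092 genes with a mean of at least 10 RPKM. They were Gm20594, Hist1h2an, Hist1h2ak, Rpl29, Fam132a, Lsmd1, Bola3, Ppdpf, Gde1 and 1810006K21Rik, at Euclidean distances of 0.882 to 1.27. The profile includes Ltf and Camp, which are listed only through a JMJD1B-/- library. None of the 10 is in the lists of granulocyte genes above. Genes of those lists with a mean under 10 RPKM, among them Cebpe, Mmp25, Cybb and Slpi, could not be found by this search. For Retnlg alone, the nearest 3 genes were the Y-linked Eif2s3y, Ddx3y and Uty, at distances of 2.09 to 2.44, which like Retnlg were lowest in WT replicate 2. The members themselves were at distances of 0.685 for Ltf, 0.696 for Ngp, 1.08 for S100a9, 1.30 for S100a8, 3.04 for Camp and 3.10 for Retnlg, so S100a8, Camp and Retnlg were farther from the median profile than the 10 genes.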

How the data were processed

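PolyA RNA of HSPCs was extracted with an RNeasy micro kit and made into TruSeq libraries. The authors deposited 1 table of RPKM values per gene and library, with 1 added to each value, which was subtracted here. The submitters' processing notes list TopHat2, Novoalign and mm9 without their role. The counting program and annotation are not given in the sources used here. ChIP-seq was not used here.

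The table has 12024 entries, and 84 that share 42 names were averaged. Depth was estimated from the whole-number steps between low values, with 33 genes behind the absolute depth and 4 behind the next best. No count test was made, because counts could not be had for every gene. The whole-read steps fitted 51 bases per read best.

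Genes with a mean of at least 0.5 RPKM were compared as log2(RPKM + 0.1) with limma 3.58.1 (R 4.3.3; lmFit and eBayes with trend, two-sided, Benjamini-Hochberg over 11863 genes). The code of the fit was checked on simulated counts with the same dispersion for every gene. That check says nothing of the spread in these libraries. The pseudocount understates changes of low genes. Whether the 2 libraries of a genotype came from separate animals rests on the design text, and p-values measure the spread between them. Tables and figures used Python 3.11.15, pandas 2.3.3, numpy 2.4.6 and matplotlib 3.10.9. Promoters came from RefSeq, GRCm38.p6, of which only the bases before the start were used.

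The members and lists were chosen with earlier results of these data known. Genes named were all members, all listed transcription factors, up to 4 genes per related list with the largest absolute log2 fold change and any with an adjusted p under 0.05, the 10 nearest in profile, and Kdm3b. Most markers of other cells are given as counts, and Kit and the genes said to be chosen after their values were seen are named outside this rule. Alternatives were pseudocounts of 1 and 0.01, no filter, a filter of 1 RPKM, median-ratio scaling, quantile normalization, limma without trend, a gene-by-gene test, a replicate block and leaving out each library.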

Additional observations from a re-analysis of the deposited data

How the results depend on the processing

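No tested member changed direction under any of 13 alternatives. The median log2 fold change ran from 1.28 to 2.52, but over the members past the filter in each setting, which were not always the same genes. Without WT replicate 2, Ltf also passed the filter (log2 fold change 1.44), and the median of 1.28 was the value of Retnlg. Ngp, S100a8 and S100a9 had 0.37, 0.40 and 1.70 there. S100a9 had an unadjusted p under 0.05 in 13 of 14 settings, the reported one included, S100a8 in 10, Retnlg in 9 and Ngp in 3. The 3 members higher at an unadjusted p under 0.05 became 1 in limma without trend and 0 in the gene-by-gene test, where the 452 of all genes became 346 and 348. With each library left out they numbered 1 to 4, the members higher at an adjusted p under 0.05 numbered 0 to 1 (S100a9, without either JMJD1B-/- library, where 336 and 116 of all genes were higher and 653 and 431 lower at that threshold, against 1 and 4 with all libraries), and all genes called at an unadjusted p numbered 127 to 1367 higher and 190 to 1777 lower. A genotype with 1 library left is assumed to vary like the other. The lowest counts over all genes were without WT replicate 1, and the highest without JMJD1B-/- replicate 1 (higher) and JMJD1B-/- replicate 2 (lower). The causes were not tested. Without WT replicate 1 the median of the 7 stroma and endothelium genes went from −1.44 to −2.67, and without JMJD1B-/- replicate 2 to −0.83. Ngp had the widest relative range, 0.37 without WT replicate 2 to 2.39 without WT replicate 1. Retnlg ran from 1.28 without WT replicate 2 to 5.58 without WT replicate 1, against 3.43 with all libraries. The deviations of same-numbered libraries had a correlation of −0.05 over 11863 genes, so no pairing by number was seen over most genes. A correlation over all genes cannot decide this for a small set, such as the 85 genes at least 2-fold higher in replicate 1 of both genotypes. Whether same-numbered libraries were prepared together was not tested. With a replicate block, S100a9 (adjusted p = 0.00544) and Retnlg (6.52e-06) made 2 members higher at an adjusted p under 0.05, beside 83 genes higher and 173 lower over all genes, and at an unadjusted p 4 members, 571 genes higher and 914 lower. The 4 genes lower at an adjusted p under 0.05 in the reported fit, Kdm3b, Prtn3 and Prss34 among them, became 15 with a pseudocount of 1. They became 0 with median-ratio scaling, quantile normalization, limma without trend and the gene-by-gene test. The medians of the other S100 genes (−0.30 to 0.72), the receptors and inhibitors (−0.48 to 0.37), the T and NK cell genes (−0.68 to 2.16) and the B cell genes (−1.86 to 0.18) took both signs across settings. The B cell median was positive only without a filter, where another gene joined Cd79b. In JMJD1B-/- replicate 1, 3 reads equal 0.491 RPKM on a transcript of 1 kb, less on longer ones such as Ltf (0.178 RPKM) and more on shorter ones such as S100a8 (1.24 RPKM).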

Other observations

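Genes that went with single libraries rather than with genotype were named after their values were seen. JMJD1B-/- replicate 1 was the highest library for S100a4 (77.3 RPKM against 9.42 to 20.3 RPKM in the others), for S100a6 (29.9 against 6.36 to 7.78 RPKM), for the interleukin 7 receptor gene Il7r (39.4 against 4.94 to 10.2 RPKM) and for the T cell receptor complex gene Cd3g (11.7 against 0.444 to 1.66 RPKM). Retnlg and Ngp were also highest there, while S100a8, S100a9 and Camp were highest in JMJD1B-/- replicate 2.

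Eosinophil and basophil genes, which stood in 1 list, differed in profile. The 4 eosinophil genes Epx, Prg2, Prg3 and Il5ra summed to 5662 and 1060 RPKM in WT and to 4522 and 1126 RPKM in JMJD1B-/- libraries, with overlap between the genotypes for each gene. The 6 basophil and mast cell genes summed to 474 and 550 RPKM in WT and to 98.2 and 42.2 RPKM in JMJD1B-/- libraries, and all 6 were lower in both JMJD1B-/- libraries than in both WT libraries. The eleventh gene of the list, Gata1, which erythroid and megakaryocyte cells also express, was the 1 gene above both WT libraries, at 32.8 and 35.9 RPKM in WT and 44.5 and 63.6 RPKM in JMJD1B-/- HSPCs (log2 fold change 0.63, SE 0.22, limma adjusted p = 0.425). The split of the list was made after its values were seen.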
